A study of Mus musculus with 18 samples.

Results

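Solute carriers are membrane proteins that move amino acids, sugars, ions, metals, nucleotides, vitamins and other small molecules across the plasma membrane, the membranes of organelles or the inner mitochondrial membrane. They carry their cargo by changing shape, either along its own gradient or coupled to a gradient of sodium, protons or another solute, and are grouped into numbered SLC families by sequence. In the mammary gland they supply the substrates of milk and exchange ions and metals with the lumen. The glands studied here had not yet gone through a pregnancy. The genes described are the protein-coding genes of the GENCODE M21 annotation whose symbol starts with Slc, leaving out the sodium-coupled Slc5a family, with a mean of 10 CPM (raw counts scaled to a common library sum) or more over the 6 libraries of at least 1 population. Of 372 such genes listed in the files 174 met this level. The rule used measured levels, so that membership itself is a description.

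RNA was taken from mammary epithelial cells of nulliparous mice aged 12 weeks that received no treatment. The mice carried MMTV-Cre, a Cre recombinase transgene under a mammary tumour virus promoter. All 3 populations therefore share the transgene, and no library without it was analysed here. Cells were sorted on CD49f, CD61 and EpCAM, with CD31, CD45 and Ter119 as lineage antigens, into basal cells (high CD49f, CD61 positive), alveolar progenitors (AP, low CD49f, CD61 positive, also called luminal progenitors) and the hormone-sensing luminal population (HSL, low CD49f, CD61 negative, also called mature luminal cells). Each population has 6 libraries, 1 for each sample number, and the labels do not tie these numbers to animals. Libraries held between 26516293 counts (HSL) and 91095830 counts (basal). In such bulk libraries, fewer cells of a type and less RNA per cell cannot be told apart.

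The labels were checked against defining markers. Krt14, Krt5, Acta2 and Trp63 summed to 20409.6 CPM or more in every basal library and to 157 CPM or less in every luminal library. Kit, Elf5, Lalba and Cd14 summed to 1936 to 4168 CPM in AP and to 102 to 448 CPM in HSL. Esr1, Pgr, Prlr and Foxa1 summed to 2118 to 4724 CPM in HSL, 246 to 1228 CPM in AP and 73.9 to 226 CPM in basal libraries. The 3 libraries of sample 1 stand apart: its AP and HSL libraries have the lowest sums of their own markers (1936 and 2118 CPM), and its HSL library has the highest sum of AP markers. Values without sample 1 are given below for several differences where they change a call or move a fold by over 1.5 times. Among 201 fitted differences of the named genes, leaving out sample 1 added 9 calls and ended 1. Not all of these calls are printed. The 201 include differences of the genes, listed below, that reached the level in a single population and are described with no test. Markers of other cell types were summed too. All 8 of 8 endothelial markers were measured and summed to 92.8 to 290 CPM in basal, 44 to 118 CPM in AP and 82.5 to 215 CPM in HSL. The 7 of 7 leukocyte markers summed to 74.5 to 365, 5.13 to 119 and 4.58 to 170 CPM in the same order, and 4 of 6 erythroid markers to 65.2 to 264, 13.4 to 69.6 and 9.36 to 32.4 CPM. The 6 of 6 fibroblast markers summed to 576 to 913, 498 to 1263 and 32.1 to 89.7 CPM. The 6 of 6 pericyte markers summed to 69.0 to 106 CPM in basal, 95 to 207 CPM in AP and 77.8 to 155 CPM in HSL libraries. Their part in the differences below was not tested.

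Of the 174 genes 123 reached the level in all 3 populations, 24 in 2 and 27 in 1 (18 in basal, 3 in AP and 6 in HSL). Just inside the level were Slc39a1 at 10.5 CPM, Slc22a14 at 10.6 CPM and Slc25a14 at 10.7 CPM, and just outside it Slc25a30 at 9.71 CPM, Slco1a6 at 9.59 CPM and Slc35d2 at 9.43 CPM, each in its highest population. A gene that was admitted only through the population where it is high had to differ between populations, so counts of calls cover the 156 genes with a mean of 10 CPM or more over all 18 libraries. The other 18 are described by their levels alone. Among the 156 there are still 11 that reached the level in a single population and passed that mean through it. They are Slc1a3, Slc43a1, Slc43a3, Slc2a4, Slc2a13 and Slc20a1 (basal), Slc28a3 and Slco1a5 (AP), and Slc17a9, Slc24a3 and Slc35g2 (HSL). These 11 stay in the counts, which are also given without them, and are described with no test of their own. Slc27a3 (highest in basal) and Slc15a2 (highest in AP) reached the level in a second population only with the high library of sample 1. Both are outside the 11 and stay in all counts. Levels are given as CPM scaled with TMM factors, and are compared between genes only per kilobase of merged exons.

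The 174 genes together took 1.28 to 1.42% of the counts in basal libraries, 1.53 to 2.15% in AP and 2.12 to 3.75% in HSL. A single gene made up most of that spread. Slc12a2, which encodes the sodium-potassium-chloride cotransporter NKCC1 of secretory epithelia, held 1.53 to 6.96% of the solute carrier counts in basal, 4.42 to 29.6% in AP and 24.9 to 56.9% in HSL libraries. Without it the share of counts was 1.23 to 1.40% in basal, 1.46 to 1.51% in AP and 1.57 to 1.73% in HSL, and the libraries of these 3 groups did not overlap.

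**Figure D1:**
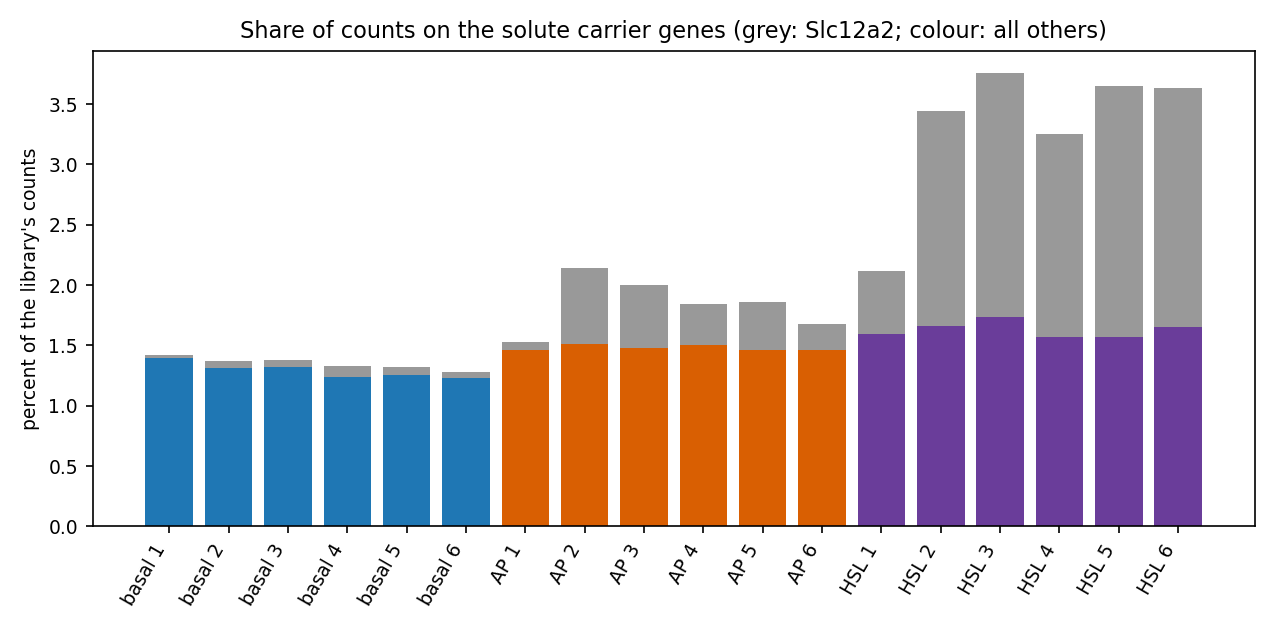
Percent of each library's counts (vertical axis) on the 174 solute carrier genes, for the 18 libraries (horizontal axis, population and sample number), with Slc12a2 in grey and all others in colour. The HSL libraries reach 3.75% with Slc12a2 and stay between 1.57 and 1.73% without it.

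Between AP and basal cells 102 of the 156 genes were called by edgeR's quasi-likelihood test at an adjusted p under 0.05 (65.4%), 62 with more and 40 with less in AP. In the same fit 44.7% of all 16471 genes tested were called, and 50.3% of the 9128 protein-coding genes with a mean of 10 CPM or more over the 18 libraries (26.7% higher, 23.6% lower). Between HSL and basal cells 122 of 156 were called (78.2%), 77 higher and 45 lower in HSL, against 58.4% of all genes and 65.3% of those protein-coding genes (35.4% higher, 29.9% lower). Between HSL and AP 101 of 156 were called (64.7%), 66 higher and 35 lower in HSL, against 39.9% of all genes and 48.7% of those protein-coding genes (26.3% higher, 22.4% lower). The libraries of the 2 populations did not overlap for 65 of 156 genes in AP and basal cells (41.7%), 89 in HSL and basal (57.1%) and 59 in HSL and AP (37.8%), beside 29.7, 42.8 and 26.3% of those protein-coding genes. The comparisons share libraries and are not independent of each other. In all, 142 of the 156 (91.0%) were called in at least 1 comparison, against 70.7% of all genes and 77.9% of those protein-coding genes. Without the 11 genes of a single population, 93 of 145 (64.1%) were called between AP and basal, 112 (77.2%) between HSL and basal and 93 (64.1%) between HSL and AP. The 8628 protein-coding genes left by the same limit gave 48.1, 64.2 and 48.2%. In all, 131 of the 145 (90.3%) were called at least once, beside 76.8% of these protein-coding genes. Of the 145 genes 59 had more and 34 less in AP than in basal cells, 73 more and 39 less in HSL than in basal cells, and 63 more and 30 less in HSL than in AP.

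The median log2 fold change of the 156 genes was 0.15 (AP to basal), 0.41 (HSL to basal) and 0.23 (HSL to AP), beside 0.06, 0.07 and 0.05 over those protein-coding genes and 0.00, -0.06 and -0.01 over all genes tested. The median size of the change was 0.67, 0.98 and 0.68, beside 0.45, 0.64 and 0.44 over those protein-coding genes. For the 145 genes the medians were 0.16, 0.41 and 0.24, and the median sizes 0.63, 0.91 and 0.67, beside sizes of 0.41, 0.61 and 0.42 over the 8628 protein-coding genes. The mean level was highest in HSL for 78 of 156 (50%), in basal for 42 (26.9%) and in AP for 36 (23.1%), where those protein-coding genes gave 41, 34.3 and 24.8%. Scaling by total counts in place of TMM moved the median of all genes from 0.00 to 0.14 for AP against basal and from -0.01 to -0.18 for HSL against AP, and the share of all calls that were higher from 48.2 to 57.6% and from 49.6 to 35.6%. Under that scaling 69 solute carriers were called above and 29 below basal in AP, and 53 above and 39 below AP in HSL.

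**Figure D2:**
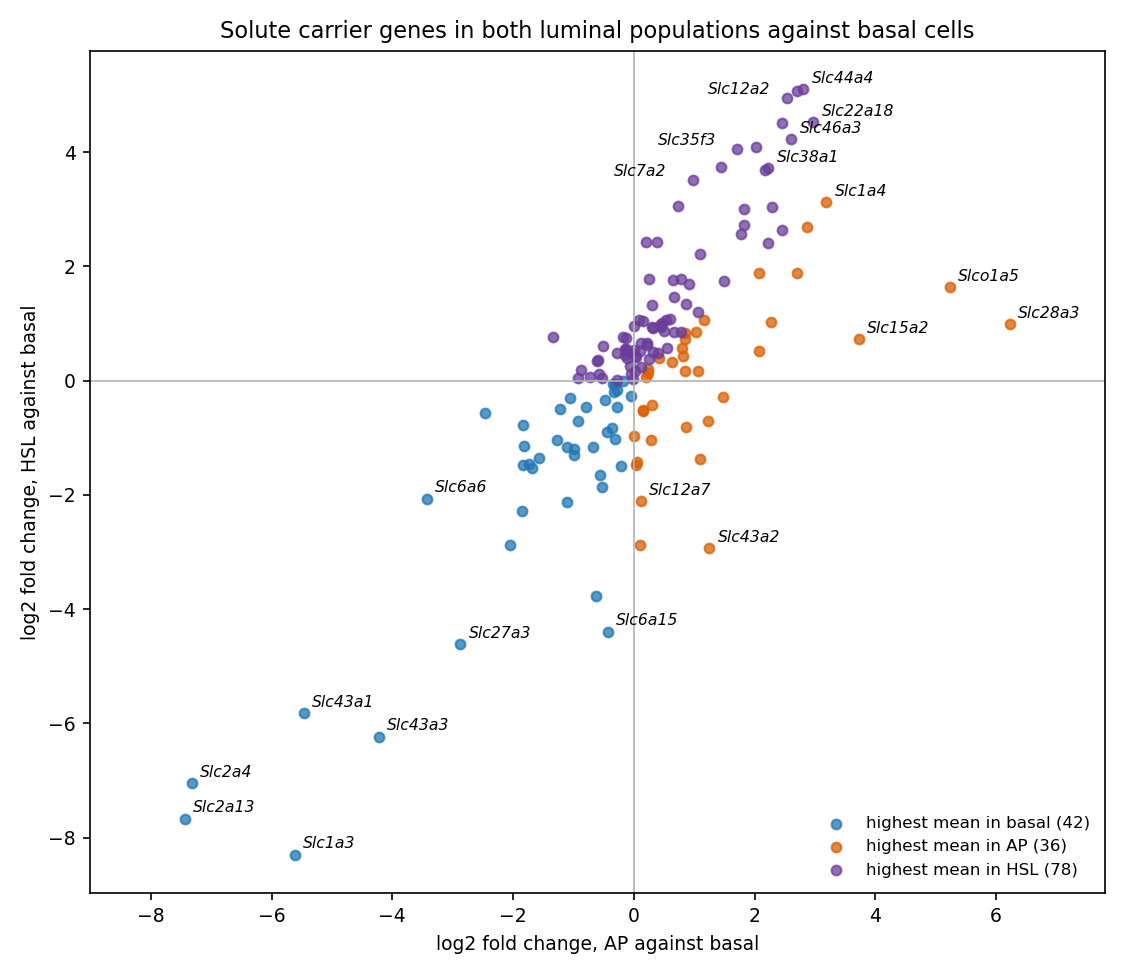
Log2 fold change of the 156 solute carrier genes of AP over basal (horizontal axis) and of HSL over basal (vertical axis), 1 point a gene, coloured by the population with the highest mean; both axes use the same basal libraries. Slc28a3, Slco1a5 and Slc15a2 lie far to the right near the horizontal line, Slc44a4 and Slc12a2 at the top, and Slc2a4, Slc2a13 and Slc1a3 at the lower left.

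The region before the gene's start was read for genes that differ most between populations, since the sequence is a property that the rule did not use. RefSeq promoters (GRCm38.p6) were found by symbol for 133 of the 174 genes, and the 250 bases before the start are printed below, 5′ to 3′ on the gene's strand, with each CG dinucleotide in capitals. A pair from the glutamate and neutral amino acid family that were high in opposite layers is shown first.
Slc1a3 (chr15:8710808-8711057, minus strand, basal): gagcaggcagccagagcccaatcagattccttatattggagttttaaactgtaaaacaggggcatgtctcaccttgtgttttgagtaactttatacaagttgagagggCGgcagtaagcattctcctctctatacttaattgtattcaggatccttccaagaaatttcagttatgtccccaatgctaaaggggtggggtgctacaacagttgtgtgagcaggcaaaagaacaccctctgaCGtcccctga
Slc1a4 (chr11:20332714-20332963, minus strand, luminal): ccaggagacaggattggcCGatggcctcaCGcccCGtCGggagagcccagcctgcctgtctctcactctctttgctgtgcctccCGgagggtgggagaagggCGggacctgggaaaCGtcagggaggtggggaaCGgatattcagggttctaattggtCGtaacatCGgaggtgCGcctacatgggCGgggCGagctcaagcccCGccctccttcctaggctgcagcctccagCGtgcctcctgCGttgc
The next 3 belong to the genes that were high in AP.
Slc28a3 (chr13:58610878-58611127, minus strand): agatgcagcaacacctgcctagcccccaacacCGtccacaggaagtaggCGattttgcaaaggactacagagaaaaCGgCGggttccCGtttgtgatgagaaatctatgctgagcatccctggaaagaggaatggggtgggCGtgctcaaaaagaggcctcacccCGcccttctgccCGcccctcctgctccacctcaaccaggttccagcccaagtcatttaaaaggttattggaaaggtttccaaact
Slco1a5 (chr6:142322982-142323231, minus strand): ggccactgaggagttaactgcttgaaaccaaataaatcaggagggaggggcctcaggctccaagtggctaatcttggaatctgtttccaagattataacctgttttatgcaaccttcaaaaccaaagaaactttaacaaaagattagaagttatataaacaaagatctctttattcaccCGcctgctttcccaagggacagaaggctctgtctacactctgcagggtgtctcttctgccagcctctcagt
Slc15a2 (chr16:36784963-36785212, minus strand): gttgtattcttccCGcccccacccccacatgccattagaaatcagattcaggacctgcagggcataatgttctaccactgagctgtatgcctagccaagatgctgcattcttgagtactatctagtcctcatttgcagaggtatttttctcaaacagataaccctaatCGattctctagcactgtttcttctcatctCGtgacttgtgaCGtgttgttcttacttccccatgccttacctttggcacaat
A pair of HSL genes and a basal gene follow.
Slc44a4 (chr17:34914216-34914465, plus strand, HSL): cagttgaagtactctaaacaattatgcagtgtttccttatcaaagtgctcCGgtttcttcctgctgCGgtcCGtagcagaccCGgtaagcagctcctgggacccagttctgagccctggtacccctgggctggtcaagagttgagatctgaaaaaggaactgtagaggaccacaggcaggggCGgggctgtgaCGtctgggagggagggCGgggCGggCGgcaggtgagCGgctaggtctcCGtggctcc
Slc46a3 (chr5:147894816-147895065, minus strand, HSL): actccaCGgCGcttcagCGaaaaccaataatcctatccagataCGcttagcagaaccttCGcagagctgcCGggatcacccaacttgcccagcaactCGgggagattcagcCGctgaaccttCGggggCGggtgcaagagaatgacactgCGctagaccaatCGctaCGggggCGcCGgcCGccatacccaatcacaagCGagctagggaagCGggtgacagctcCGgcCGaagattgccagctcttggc
Slc2a13 (chr15:91573262-91573511, minus strand, basal): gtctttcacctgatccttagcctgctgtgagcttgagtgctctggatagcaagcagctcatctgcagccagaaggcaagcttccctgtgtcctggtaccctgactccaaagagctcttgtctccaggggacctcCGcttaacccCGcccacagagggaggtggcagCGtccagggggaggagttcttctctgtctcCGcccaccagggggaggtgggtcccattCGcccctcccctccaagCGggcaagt

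These windows hold 2 CG dinucleotides for Slc1a3 and 16 for Slc1a4, 8, 1 and 4 for the AP genes Slc28a3, Slco1a5 and Slc15a2, 11 and 20 for Slc44a4 and Slc46a3, and 6 for Slc2a13. Over the 133 matched genes the median was 15 per 250 bases. It was 14.5 for the 96 genes at the level in all 3 populations, 17.5 for the 14 in 2 and 8 (quartiles 5 and 19.5) for the 23 in a single population. Among all protein-coding genes matched and chosen by the same level the medians were 17 (6047 genes in 3 populations), 15 (903 genes in 2) and 13 (909 genes in 1), so that fewer CG dinucleotides in genes of a single population were seen there too. The letters CCGGAAG (an ETS motif), GGAATG (TEAD), TGCGCNC (metal response element) and TGTTTAC (forkhead), searched on both strands, were present in 18 (13.5%), 20 (15%), 28 (21.1%) and 0 of the 133 windows, and in 7.05, 12.6, 12.6 and 3.09% of 27025 promoters of all symbols. The members' windows hold more CG than those of all symbols (median 15 against 6), and the matches are a description.

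**Figure D3:**
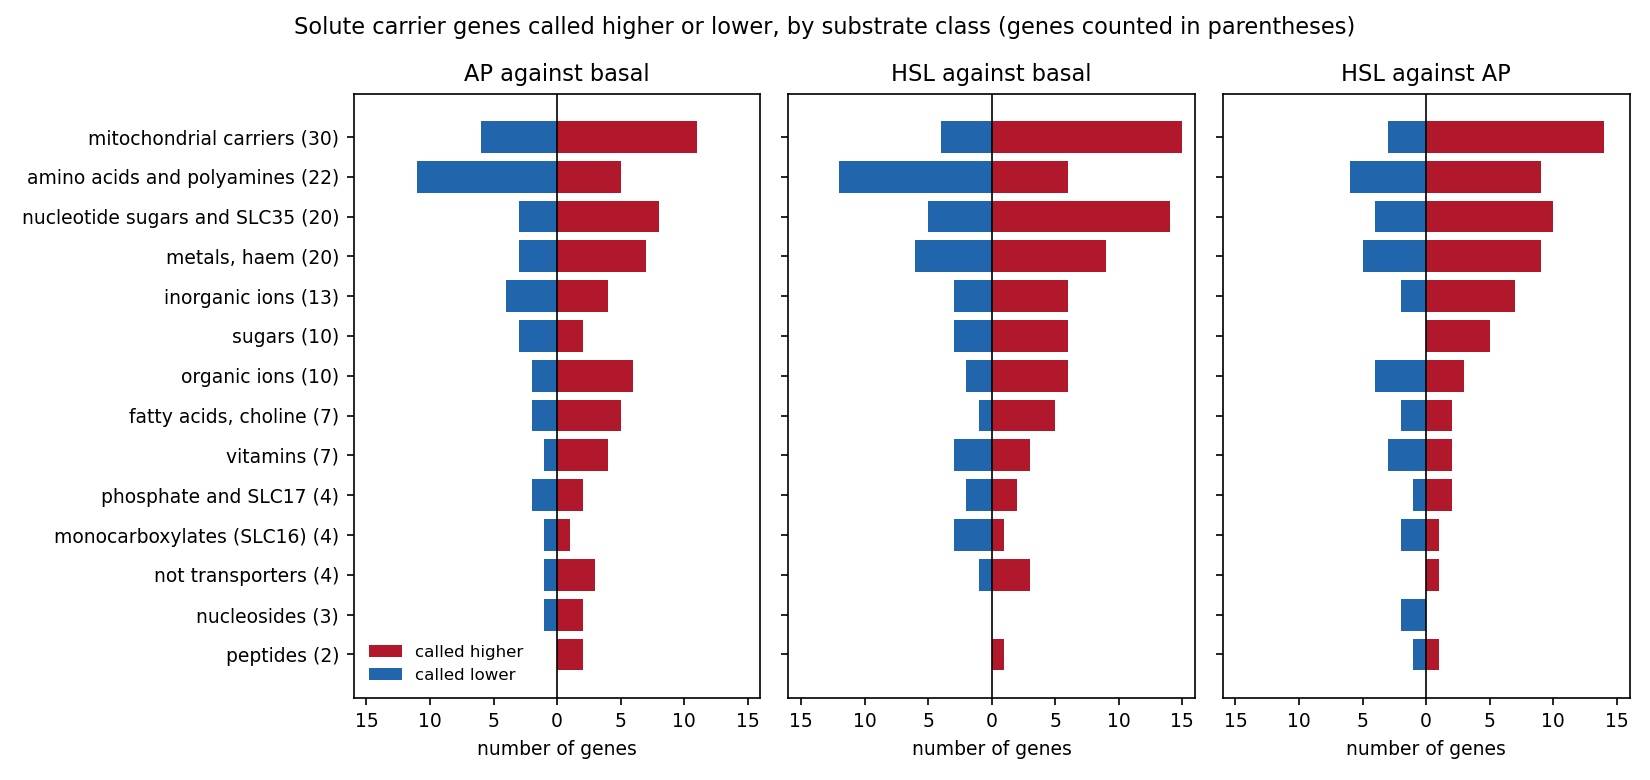
Number of genes called higher (red, to the right) or lower (blue, to the left) in the first-named population, for each substrate class (vertical axis, with the number of genes counted) and comparison (panels). In HSL against basal, nucleotide sugar and mitochondrial (SLC25) carriers have 14 and 15 called higher against 5 and 4 lower, and amino acid carriers 6 higher against 12 lower. The 14 include Slc35g2, which reached the level in HSL alone. The 12 include Slc1a3, Slc43a1 and Slc43a3, which reached the level in basal cells alone.

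Class and list counts below stand beside the shares of protein-coding genes with a mean of 10 CPM or more over the 18 libraries. These were 26.7% higher and 23.6% lower for AP against basal. They were 35.4 and 29.9% for HSL against basal, and 26.3 and 22.4% for HSL against AP. No class or list was tested against them. Of 24 amino acid carriers 22 entered the counts, with 11 below and 5 above basal in AP, and 12 below and 6 above basal in HSL. The lower ones include Slc1a3, Slc43a1 and Slc43a3, which reached the level in basal cells alone and so had to be lower. Both the counts and the medians include them. Between HSL and AP 9 were higher and 6 lower. The median log2 fold changes were -0.53, -0.64 and 0.35. By level per kilobase the class was led by Slc3a2, the heavy chain that escorts several amino acid exchangers of the SLC7 family to the cell surface. Slc3a2 was at 707, 988 and 1179.9 CPM (lowest, median and highest of 6 libraries) in basal, 436, 874 and 1136 CPM in AP and 259, 335 and 446 CPM in HSL. The HSL libraries lay below all basal libraries, and the fall against basal was 2.83-fold (log2 -1.50 ± 0.19 (SE), edgeR adjusted p = 2.8e-06). AP against basal did not pass the test (log2 -0.21 ± 0.19, adjusted p = 0.39). Its best known partner Slc7a5 is listed at 0 in all libraries. It is 1 of 8 solute carriers listed at 0 that lie entirely within the span of another gene or genes, and no level can be read for it.

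Slc7a2, which takes up arginine and other cationic amino acids, went the other way. It was at 56.8, 112 and 135 CPM in basal, 38.1, 188 and 345 CPM in AP and 358, 1234 and 1611 CPM in HSL. Every HSL library was above every other library, and HSL exceeded basal 11.4-fold (log2 3.51 ± 0.46, adjusted p = 3.5e-06) and AP 5.78-fold (log2 2.53 ± 0.44, adjusted p = 0.00019). AP against basal did not pass (log2 0.98 ± 0.42, adjusted p = 0.069), but passed when blocked on sample number (log2 0.77, adjusted p = 0.017), with DESeq2 (log2 0.98, adjusted p = 0.043), with scaling by total counts (log2 1.10, adjusted p = 0.030) and without sample 1 (log2 1.08, adjusted p = 0.0035). Slc38a1 and Slc38a2, sodium-coupled carriers of glutamine and other neutral amino acids, both on chromosome 15, had different orders of levels. Slc38a1 was at 15.3 ± 3.87 CPM (SD, n = 6) in basal, 71.8 ± 8.24 CPM in AP and 202 ± 28.6 CPM in HSL, with no overlap between any of the groups. Slc38a2 was at 606 ± 183 CPM in basal, 261 ± 35.5 CPM in AP and 428 ± 66.5 CPM in HSL. It was 2.32-fold lower in AP than in basal (adjusted p = 2.0e-05). The difference of HSL from basal (log2 -0.50, adjusted p = 0.021) was no longer called without sample 4 (log2 -0.50) or sample 5 (log2 -0.47).

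The glutamate and neutral amino acid family SLC1 split between the layers. Slc1a3, a sodium-coupled glutamate and aspartate carrier, was at 28, 34.3 and 54.1 CPM in basal, 0.0452, 0.755 and 1.56 CPM in AP and 0, 0.0523 and 0.30 CPM in HSL, so that no luminal library came near a basal one. The fitted difference from basal was 49.0-fold in AP (log2 -5.62) and 314-fold in HSL (log2 -8.30, and -9.06 without sample 1). Slc1a4, which exchanges alanine, serine and cysteine, was at 4.12, 5.88 and 27.4 CPM in basal, 72.3, 84.9 and 109 CPM in AP and 38.9, 90.5 and 120 CPM in HSL. It was 9.10-fold higher in AP and 8.73-fold higher in HSL than in basal (log2 3.19 ± 0.43 and 3.13 ± 0.43, adjusted p = 7.8e-06 and 5.7e-06). It was log2 3.83 and 3.90 without sample 1, whose basal library is the one at 27.4 CPM. Slc1a5, the glutamine exchanger ASCT2, was also highest in basal cells, at 189 ± 7.54 CPM in basal, 53.0 ± 17.9 CPM in AP and 68.0 ± 22.5 CPM in HSL, a fall of 3.56-fold and 2.77-fold. Slc1a1, admitted by AP alone, was at 0.686 ± 0.366, 14.9 ± 6.36 and 0.811 ± 0.624 CPM in basal, AP and HSL, a description with no test.

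Slc6a6, the taurine transporter, was at 199, 400 and 476 CPM in basal, 26.2, 32.7 and 52.6 CPM in AP and 45.6, 85.8 and 154 CPM in HSL. Basal libraries stood above all luminal ones, and the fall was 10.7-fold in AP (log2 -3.42 ± 0.27, adjusted p = 1.2e-08) and 4.18-fold in HSL (log2 -2.06 ± 0.26, adjusted p = 2.0e-06). Of the 3 members of the SLC43 family Slc43a1 and Slc43a3 were highest in basal cells and Slc43a2 in AP. Slc43a1, a carrier of large neutral amino acids on chromosome 2, was at 43.8 ± 18 CPM in basal and 1.11 CPM or less in every luminal library (0.986 ± 0.125 CPM in AP and 0.764 ± 0.273 CPM in HSL). Slc43a3, also on chromosome 2, is known for purine nucleobases in spite of its family, and was at 118 ± 35.1 CPM in basal, 6.30 ± 2.37 CPM in AP and 1.54 ± 1.22 CPM in HSL (log2 -4.22 and -6.23 against basal, the latter -6.91 without sample 1). Slc43a2, another carrier of large neutral amino acids, was at 30.8, 37.6 and 58.3 CPM in basal, 56.8, 98.2 and 137 CPM in AP and 1.79, 4.46 and 14.3 CPM in HSL. It was higher in AP than in basal (log2 1.25 ± 0.40, adjusted p = 0.016, not called without sample 6, log2 1.23) and 18.2-fold lower in HSL than in AP (log2 -4.18 ± 0.45, adjusted p = 1.5e-06, log2 -4.91 without sample 1).

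Sugar carriers, 11 genes of which 10 entered the counts, had 2 above and 3 below basal in AP, 6 above and 3 below basal in HSL, and 5 higher and none below AP in HSL, with medians of 0.23, 0.68 and 0.57. The 3 below basal include Slc2a4 and Slc2a13, which reached the level in basal cells alone. Slc2a1, the widely expressed glucose transporter GLUT1 that feeds lactose synthesis in lactation, led the class per kilobase and was not called in any comparison. Slc2a1 was at 124, 180 and 263 CPM in basal, 86.4, 221 and 351 CPM in AP and 158, 212 and 285 CPM in HSL, with all groups overlapping (log2 0.24 ± 0.27, 0.20 ± 0.27 and -0.04 ± 0.27).

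Slc2a4, the insulin-responsive glucose transporter GLUT4 of muscle and fat, was found in the basal libraries. Slc2a4 was at 128, 157 and 179 CPM in basal, 0, 0.871 and 2.47 CPM in AP and 1.04, 1.12 and 1.34 CPM in HSL. The basal libraries stood 160-fold above AP (log2 -7.32) and 133-fold above HSL (log2 -7.05). Fat cell markers were looked at beside it: of Adipoq, Plin1, Cidec, Lep and Fabp4 only Cidec and Fabp4 passed the low-count filter. Cidec was at 0.45, 0.28 and 0.27 CPM in basal, AP and HSL, and Fabp4, which blood vessels also express, at 177, 53.0 and 30.6 CPM. Slc2a13, which carries myo-inositol with protons, was also highest in basal cells. Slc2a13 was at 42.1, 47.7 and 91.8 CPM in basal, 0.0789, 0.144 and 1.22 CPM in AP and 0.022, 0.147 and 0.67 CPM in HSL. The fitted difference from basal was 173-fold in AP (log2 -7.44, and -8.36 without sample 3, whose AP library is the one at 1.22 CPM) and 203-fold in HSL (log2 -7.67, and -8.37 without sample 1). Slc37a1, a sugar-phosphate exchanger, was high in both luminal populations, at 7.08 ± 2.04 CPM in basal, 51.8 ± 13.2 CPM in AP and 45.8 ± 5.84 CPM in HSL. Slc50a1, of the SWEET family of sugar carriers, was higher in HSL (115 ± 22.3 CPM) than in basal (68.4 ± 11.9 CPM, adjusted p = 0.00019) and AP (62.2 ± 6.66 CPM, adjusted p = 8.8e-05).

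**Figure D4:**
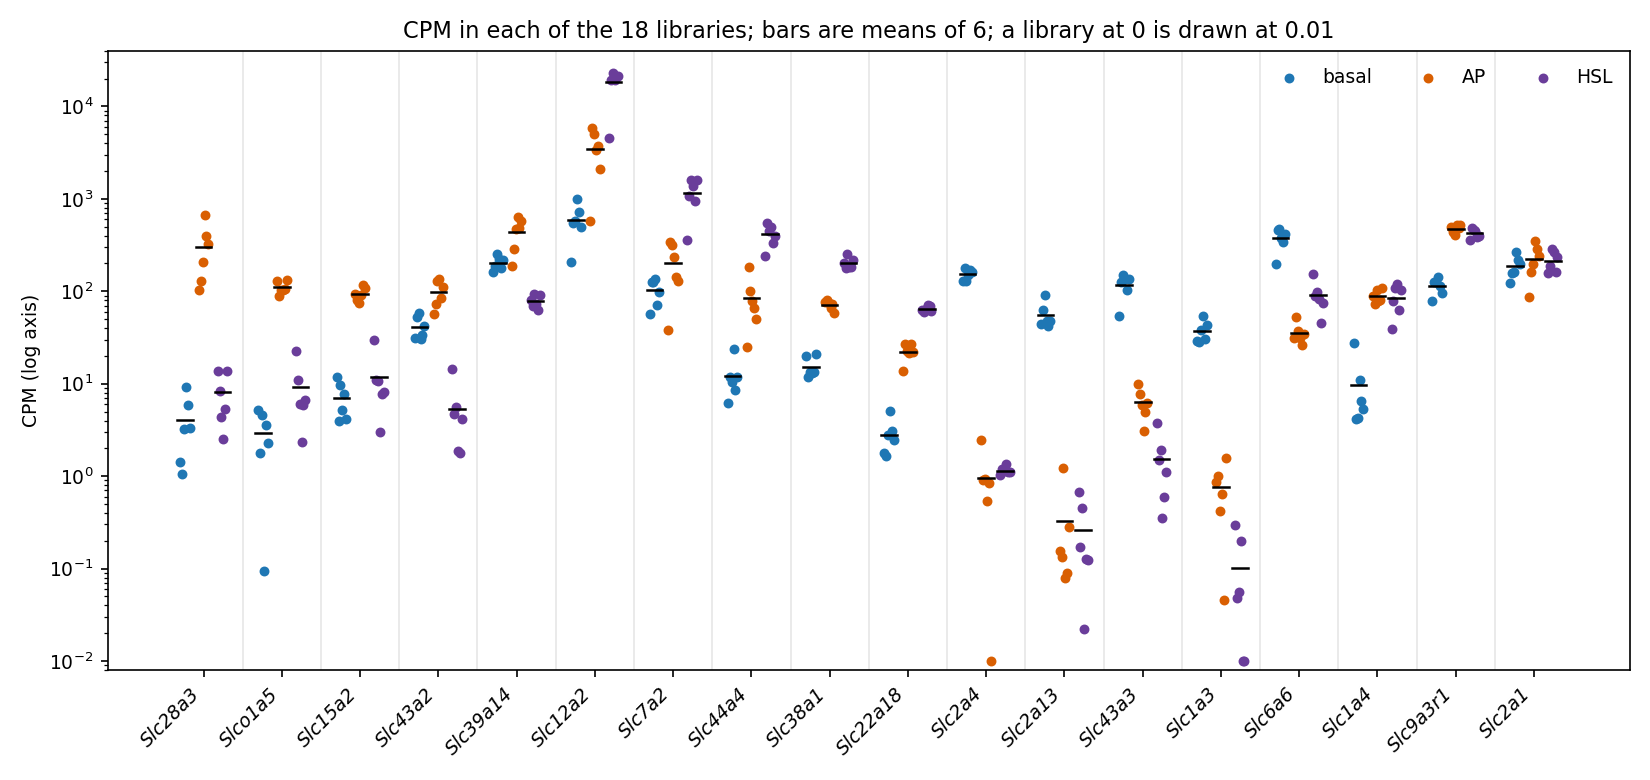
CPM (vertical axis, log scale) of 18 solute carrier genes (horizontal axis) in each of the 18 libraries, coloured by population; bars are means and a library at 0 is drawn at the foot of the axis. Slc28a3 to Slc39a14 are highest in AP, Slc12a2 to Slc22a18 in HSL and Slc2a4 to Slc6a6 in basal cells, while all 3 populations overlap at Slc2a1.

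Of the 8 carriers of the SLC16 family, which is known for monocarboxylates, 4 entered the counts, with 1 above and 1 below basal in AP, 1 and 3 in HSL against basal, and 1 and 2 in HSL against AP. Slc16a1, the lactate and pyruvate carrier MCT1, was at 214 ± 40.1 CPM in basal, 108 ± 56.2 CPM in AP and 93.9 ± 31.4 CPM in HSL (log2 -0.99 ± 0.28 and -1.19 ± 0.28, adjusted p = 0.0073 and 0.0013), and shares 21.6% of its span with another gene. Its accessory protein Bsg, which brings it to the surface, went the opposite way at 599 ± 72.9, 1273 ± 262 and 1619.6 ± 441 CPM. The related Emb was at 352 ± 44 CPM in basal and 4.14 ± 1.51 and 2.73 ± 1.71 CPM in AP and HSL. Slc16a11 and Slc16a13, neighbours on chromosome 11, were admitted by basal cells alone, at 21.5 ± 6.08 and 16.9 ± 5.31 CPM. They were at 1.55 ± 0.666 and 1.96 ± 1.02 CPM in AP and 5.05 ± 1.77 and 5.70 ± 1.48 CPM in HSL, with no test.

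Carriers of inorganic ions, 18 genes with 13 in the counts, had 4 above and 4 below basal in AP, 6 above and 3 below basal in HSL, and 7 above and 2 below AP in HSL. The 13 include Slc24a3, which reached the level in HSL alone and so had to be high there. Slc12a2 had the highest level per kilobase of all 174 genes. It was at 208, 562 and 999 CPM in basal, 578, 3523 and 5891 CPM in AP and 4505, 20426 and 22883 CPM in HSL. Sample 1 had the lowest value in each population. Its AP library (578 CPM) lay within the basal range, and its HSL library (4505 CPM) lay within the AP range. HSL exceeded basal 30.8-fold (log2 4.95 ± 0.54, adjusted p = 3.7e-07) and AP 5.30-fold (log2 2.41 ± 0.48, adjusted p = 0.00066), and AP exceeded basal 5.82-fold (log2 2.54 ± 0.49, adjusted p = 0.00031).

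The level of Slc12a2 in AP libraries went with that of the hormone-sensing markers. In samples 1 to 6 the AP library held 12.8, 30.3, 21.8, 17.3, 17.2 and 9.84% of the Slc12a2 level of the HSL library of the same number, and 11.6, 30.4, 24.3, 20.1, 19.1 and 12.9% of the summed level of Esr1, Pgr, Prlr and Foxa1. The same percentages were 10.3, 33.2, 22.4, 15.5, 20 and 12.6% for Slc44a4 and 10.7, 31.8, 19.7, 16.8, 15.2 and 8.17% for Slc7a2. For Slc22a18 (21.6 to 44.6%), Slc38a1 (27 to 45.9%), Slc46a3 (25.7 to 40.1%) and Slc39a11 (45.8 to 104%) they were above those of the markers in every sample. For Slc35f3 (9.81 to 34.3%), Slc52a3 (9.41 to 35.8%), Slc17a9 (15.4 to 33.3%) and Slc16a5 (7.75 to 54.3%) the order against the markers differed between samples. The part of HSL cells or their RNA in the AP values of these genes was not tested. In the other direction, the HSL library of sample 1 held 23.2% of the AP library's level of Kit, Elf5, Lalba and Cd14, against 2.49 to 10.1% in samples 2 to 6.

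**Figure D5:**
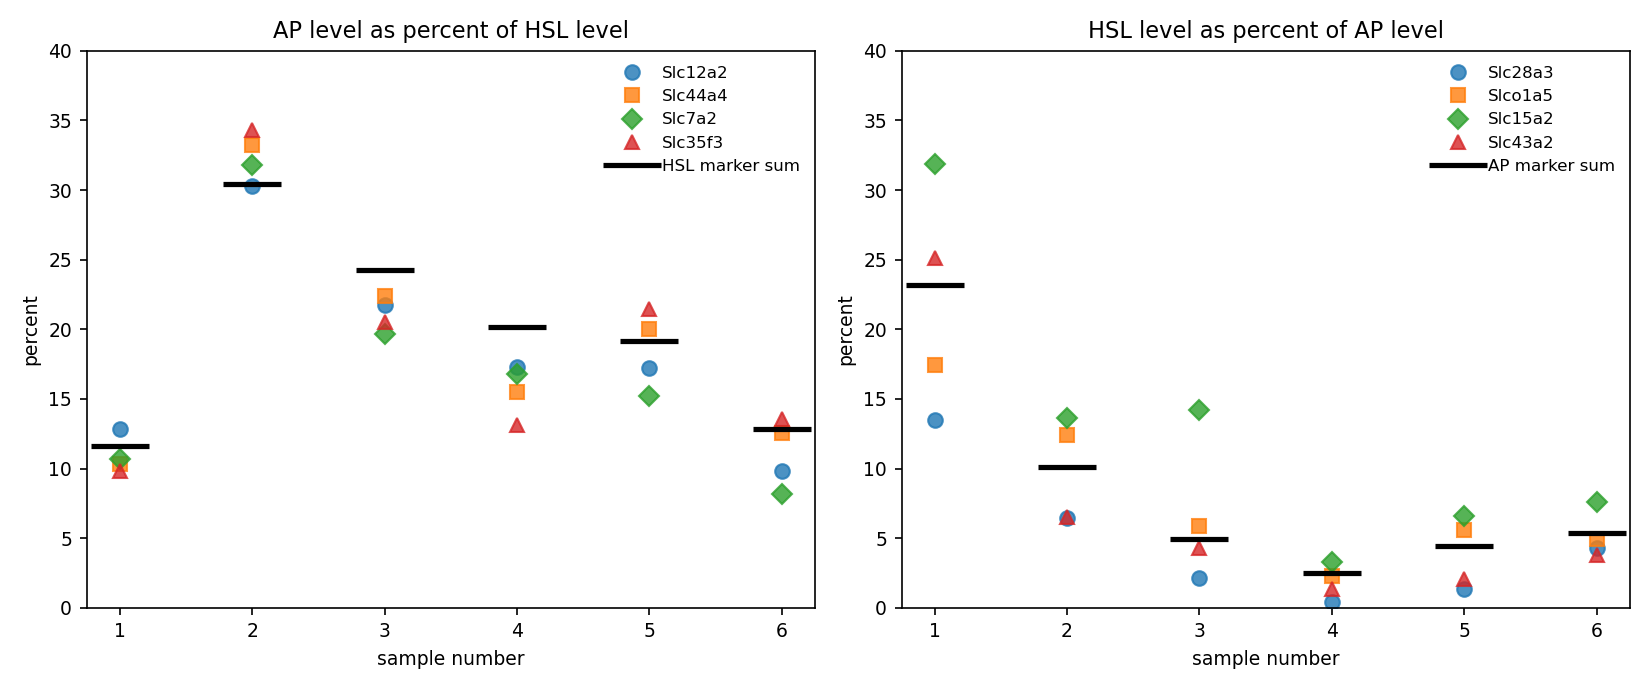
Left, level in the AP library as percent of the HSL library of the same sample number, for 4 genes high in HSL and for the summed HSL markers (black bars); right, level in the HSL library as percent of the AP library, for 4 genes high in AP and the summed AP markers. Horizontal axes give the sample number; sample 2 is highest on the left (30.4% for the markers) and sample 1 on the right (23.2%).

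Genes around Slc12a2 in chloride and water transport were described from lists of partners and water channels. Aqp5, a water channel of secretory epithelia, had the same order of levels, at 125 ± 85.7 CPM in basal, 1015 ± 428 CPM in AP and 4145 ± 1674 CPM in HSL. Aqp1, another water channel, was instead lowest in HSL, at 104 ± 43.4, 202 ± 104 and 20.6 ± 7.55 CPM in basal, AP and HSL (log2 -2.34 and -3.29 for HSL against basal and AP, adjusted p = 0.00035 and 4.2e-05). Stk39, the kinase SPAK that activates NKCC1, was also lowest in HSL, at 143 ± 31.4, 272 ± 55.1 and 30.3 ± 18.2 CPM in basal, AP and HSL (log2 -2.24 and -3.17 for HSL against basal and AP, adjusted p = 4.2e-06 and 6.0e-07). Slc12a7, a potassium-chloride cotransporter that works in the opposite direction, was at 52.6, 56.8 and 77.3 CPM in basal, 61.1, 66.2 and 70.4 CPM in AP and 0.573, 8.72 and 50.4 CPM in HSL. The 50.4 CPM is the HSL library of sample 1, and the fall in HSL against AP was log2 -2.22 ± 0.58 (adjusted p = 0.0051) with that sample and -3.29 (adjusted p = 1.7e-05) without it. Slc12a4, of the same group, was at 69.7 ± 10.6 CPM in basal, 12.7 ± 15.4 CPM in AP and 47 ± 38 CPM in HSL, lower in AP than in basal (log2 -2.46 ± 0.64, adjusted p = 0.0041; -3.24 when blocked on sample number, and -3.34 without sample 2, whose AP library is at 42.5 CPM). Its difference of HSL from basal, not called with all samples, passed with that block (log2 -1.12, adjusted p = 0.020) and in samples 4 to 6 alone (log2 -1.31, adjusted p = 0.014). The difference of HSL from AP (log2 1.89, adjusted p = 0.023) was lost without sample 3, 4 or 6 (log2 1.68, 1.81 and 1.73). Slc8b1, the mitochondrial sodium-calcium exchanger, rose 5.50-fold in AP and 6.24-fold in HSL over 9.81 ± 1.27 CPM in basal (adjusted p = 2.5e-09 and 6.7e-10). Slc8a1, the plasma membrane sodium-calcium exchanger of contractile cells, was admitted by basal cells alone at 9.54, 29.6 and 52.9 CPM, and no luminal library exceeded 0.53 CPM.

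Phosphate carriers and the vesicular and lysosomal SLC17 family gave 4 genes, 2 higher and 2 lower in each luminal population than in basal cells. Of these 4 Slc20a1 reached the level in basal cells alone and Slc17a9 in HSL alone. Slc20a2, which takes up phosphate with sodium, fell from 121 ± 23.1 CPM in basal to 60.9 ± 19.6 CPM in AP and 48.7 ± 7.5 CPM in HSL (adjusted p = 0.00016 and 4.8e-06). Slc17a9, which loads nucleotides into vesicles, was at 1.41 ± 0.703 CPM in basal, 7.63 ± 3.92 CPM in AP and 31.8 ± 8.92 CPM in HSL. Slc34a2, the phosphate carrier of lactating glands, did not reach the level of the rule, at 0.332 ± 0.373, 3.84 ± 1.48 and 0.773 ± 0.758 CPM.

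Metal carriers, 22 genes with 20 in the counts, had 7 above and 3 below basal in AP, 9 and 6 in HSL against basal, and 9 and 5 in HSL against AP. In AP against basal this was near the 50.3% called of protein-coding genes with the same mean. Slc39a14, a carrier of zinc, iron and manganese, was at 161, 205 and 251 CPM in basal, 188, 479 and 630 CPM in AP and 63.5, 76.8 and 92.5 CPM in HSL. Only the AP library of sample 1 lay within the basal range, and HSL lay below all others, 5.59-fold below AP (log2 -2.48 ± 0.24, adjusted p = 4.4e-07). Slc31a1, the copper uptake carrier CTR1, rose in steps from 84.1 ± 12.1 CPM in basal to 145 ± 9.14 CPM in AP and 289 ± 51.1 CPM in HSL with no overlap between groups, and shares 26.1% of its span with another gene. Slc48a1, which moves haem out of lysosomes, had the highest level of the class per kilobase and changed by 1.33-fold in AP and 1.40-fold in HSL (adjusted p = 0.0031 and 0.00051). Slc30a4, a zinc exporter into vesicles that is needed for zinc in mouse milk, was at 68.3 ± 12.5, 45 ± 9.50 and 86.2 ± 30.4 CPM, higher in HSL than in AP (log2 0.94 ± 0.22, adjusted p = 0.0020). The iron exporter Slc40a1 was at 14.4 ± 4.95, 25.1 ± 8.52 and 19.4 ± 3.50 CPM, higher in AP than in basal (log2 0.81 ± 0.26, adjusted p = 0.016), which was not called without sample 4 (log2 0.77). The metal-binding proteins Mt1 and Mt2 were highest in basal libraries, Mt1 at 3203 ± 1529 CPM against 203 ± 87.9 CPM in AP and 218 ± 104 CPM in HSL.

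Of the 3 nucleoside carriers 2 were highest in AP and 1 in basal cells. The 2 include Slc28a3, which reached the level in AP alone. Slc28a3, which concentrates purine and pyrimidine nucleosides with sodium and protons, was at 1.07, 3.27 and 9.28 CPM in basal, 103, 264 and 665 CPM in AP and 2.55, 6.86 and 13.9 CPM in HSL. Every AP library stood above every other library, with a mean of 305 ± 210 CPM against 4.04 ± 3.09 CPM in basal and 8.07 ± 4.87 CPM in HSL. In the HSL libraries of samples 1 to 6 Slc28a3 was at 13.5, 6.44, 2.14, 0.384, 1.32 and 4.29% of the AP library of the same number, where the AP markers gave 23.2, 10.1, 4.91, 2.49, 4.45 and 5.35%. Slc29a3, a lysosomal nucleoside carrier, was 2.78-fold higher in AP (116 ± 23.8 CPM) than in basal (41.5 ± 7.68 CPM, adjusted p = 4.8e-05) and 3.41-fold higher than in HSL (33.9 ± 15.5 CPM, adjusted p = 1.4e-05). Slc29a1, the equilibrative carrier ENT1 of the plasma membrane, had the highest level per kilobase of the class and moved little, at 310 ± 53.3, 245 ± 41.3 and 296 ± 29.6 CPM. Its difference of AP from basal (log2 -0.34 ± 0.12, adjusted p = 0.034) was lost without sample 2 (log2 -0.32), 3 (-0.27), 4 (-0.34), 5 (-0.34) or 6 (-0.35) and with scaling by total counts (-0.20). HSL against AP (log2 0.27 ± 0.12, adjusted p = 0.092) passed when blocked on sample number (log2 0.28, adjusted p = 0.0075) and without sample 1 (log2 0.31, adjusted p = 0.0032).

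Slc15a2, the proton-coupled peptide carrier PEPT2, was another gene that stood out in AP. Slc15a2 was at 4, 6.48 and 11.7 CPM in basal, 74.8, 92.2 and 117 CPM in AP and 2.97, 9.43 and 29.8 CPM in HSL, the last in sample 1. AP exceeded basal 13.3-fold (log2 3.73) and HSL 8.02-fold (log2 -3.0 for HSL against AP). The HSL mean reached the level of the rule only with the library of sample 1, so that these 2 differences are given with no test. HSL against basal did not pass (log2 0.73 ± 0.40, adjusted p = 0.12). The lysosomal peptide and histidine carrier Slc15a4 was at 33.5 ± 4.10, 41.6 ± 4.67 and 63.7 ± 10.6 CPM, higher in HSL than in basal (log2 0.93 ± 0.12, adjusted p = 3.5e-06).

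Organic ion carriers, 12 genes with 10 in the counts, had 6 higher and 2 lower in each luminal population than in basal cells, and 3 above and 4 below AP in HSL. The 10 include Slco1a5, which reached the level in AP alone and so had to be high there. The organic anion carriers of the SLCO family each had a different highest population. Slco1a5, which takes up bile salts, steroid conjugates and other organic anions, was at 0.0947, 2.93 and 5.24 CPM in basal, 89.2, 104 and 133 CPM in AP and 2.36, 6.30 and 22.7 CPM in HSL. No other library reached the AP range, and AP stood 37.7-fold above basal (log2 5.24) and 12.1-fold above HSL (log2 -3.60 for HSL against AP). Slco2a1, the prostaglandin uptake carrier, was at 495, 543 and 1397 CPM in basal, 75.3, 247 and 605 CPM in AP and 466, 1192 and 1778 CPM in HSL. It was 4.30-fold higher in HSL than in AP (log2 2.10 ± 0.42, adjusted p = 0.00068). HSL against basal was log2 0.76 ± 0.41 with all samples (adjusted p = 0.12, not called) and 1.25 (adjusted p = 0.0010) without sample 1, whose basal library is the one at 1397 CPM. Slco3a1 was highest in basal, at 87.4 ± 19.9 CPM against 21.0 ± 4.44 CPM in AP and 11.9 ± 3.47 CPM in HSL.

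In the SLC22 family Slc22a18 was at 1.65, 2.64 and 5.06 CPM in basal, 13.6, 22.1 and 26.8 CPM in AP and 60.1, 64.0 and 71.2 CPM in HSL. The 3 ranges were far apart (HSL 23-fold over basal and 2.93-fold over AP, adjusted p = 1.0e-10 and 2.8e-05). Slc22a4, the ergothioneine carrier, was at 5.70 ± 2.44, 36.9 ± 21.6 and 21.1 ± 6.74 CPM. Its difference of HSL from AP (log2 -0.81 ± 0.34, adjusted p = 0.068) passed when blocked on sample number (log2 -0.71, adjusted p = 0.017), without sample 1 (-0.81), with DESeq2 (-0.84), with scaling by total counts (-1.02) and in samples 4 to 6 alone (-0.42). Slc22a5, the carnitine carrier, was 1.47-fold higher in AP and 1.49-fold higher in HSL than the 18.4 ± 3.13 CPM of basal cells (adjusted p = 0.0013 and 0.00063).

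All 7 fatty acid and choline carriers entered the counts, with 5 above and 2 below basal in AP, 5 and 1 in HSL against basal, and 2 and 2 in HSL against AP. Slc44a1, the choline carrier CTL1, led the class per kilobase at 268 ± 28.1 CPM in basal, 546 ± 52 CPM in AP and 483 ± 102 CPM in HSL. Its relative Slc44a4 was at 6.12, 11 and 23.6 CPM in basal, 24.7, 72.1 and 182 CPM in AP and 239, 426 and 549 CPM in HSL. The 3 ranges did not overlap, and HSL exceeded basal 34.4-fold (log2 5.10 ± 0.45, adjusted p = 2.6e-08) and AP 4.92-fold (log2 2.30 ± 0.40, adjusted p = 0.00017). Slc27a1, a fatty acid transport protein, was highest in AP at 364 ± 92.3 CPM, against 86.5 ± 16.6 CPM in basal and 124 ± 10.6 CPM in HSL (4.2-fold and 2.94-fold, adjusted p = 8.5e-09 and 8.8e-07). Slc27a3, of the same family, was highest in basal, at 47.8, 65.1 and 95.6 CPM against 3.13, 7.38 and 24.8 CPM in AP and 0.703, 1.10 and 11.2 CPM in HSL. Sample 1 gave the highest value in AP and in HSL, and the fold changes against basal, log2 -2.87 in AP and -4.61 in HSL, were -3.49 and -6.08 without it. No other AP library exceeded 7.57 CPM, so that Slc27a3 reached the level in AP only through sample 1. Its differences from basal are therefore given with no test. HSL against AP (log2 -1.74, adjusted p = 0.037) was not called without sample 2 (log2 -1.64), 3 (-1.75), 4 (-1.69), 5 (-1.65) or 6 (-1.65), and was -2.59 (adjusted p = 1.4e-06) without sample 1.

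All 7 vitamin carriers entered the counts, with 4 above and 1 below basal in AP, 3 and 3 in HSL against basal, and 2 and 3 in HSL against AP. Slc52a3, a riboflavin carrier, rose from 6.51 ± 1.44 CPM in basal to 17.8 ± 13.2 CPM in AP and 87.4 ± 21.3 CPM in HSL (13.4-fold over basal, adjusted p = 1.2e-07). Slc46a3, a lysosomal member of the folate carrier family, was at 2.60, 3.70 and 9.41 CPM in basal, 8.32, 30.2 and 43.4 CPM in AP and 29.4, 94.4 and 116 CPM in HSL. Its relative Slc46a1, the proton-coupled folate carrier, was instead highest in AP, at 82.4 ± 11 CPM against 45.4 ± 11.5 CPM in basal and 25.9 ± 8.22 CPM in HSL (log2 0.86 ± 0.19 and, for HSL against AP, -1.67 ± 0.20, adjusted p = 0.0013 and 3.6e-06).

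The carriers of the secretory pathway, which bring nucleotide sugars, sulfate donors and acetyl-CoA into the Golgi and endoplasmic reticulum (SLC35 and SLC33, with several members of unknown cargo), gave 20 genes, all in the counts. In AP 8 were called above and 3 below basal. In HSL 14 were called above and 5 below basal, and 10 above and 4 below AP, with medians of 0.26, 0.81 and 0.33. Counts and medians include Slc35g2, which reached the level in HSL alone and so had to be high there. Slc35b2, which imports the sulfate donor PAPS, had the highest level per kilobase and was higher in HSL (241 ± 29.2 CPM) than in basal (179 ± 17.1 CPM) and AP (181 ± 26.9 CPM). The difference from AP (log2 0.41) was not called without sample 3 (log2 0.31) or with scaling by total counts (0.22). Slc35f3, which is linked to thiamine, was at 13.3, 16.6 and 30.8 CPM in basal, 32.1, 43.4 and 149 CPM in AP and 228, 298 and 434 CPM in HSL. No ranges overlapped, and HSL exceeded basal 16.5-fold (log2 4.05 ± 0.37, adjusted p = 4.0e-08). Slc35e4, whose cargo is not known, was highest in AP, at 338 ± 88.9 CPM against 144 ± 32.3 CPM in basal and 88.3 ± 13.2 CPM in HSL. Slc35f6 was at 43.7 ± 6.90, 52.1 ± 10.8 and 151 ± 22.1 CPM in basal, AP and HSL.

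The SLC25 family, most of whose members are carriers of the inner mitochondrial membrane, was the largest class, 32 genes with 30 in the counts. In AP 11 were called above and 6 below basal. In HSL 15 were called above and 4 below basal, and 14 above and 3 below AP, while 7 were called in none. Slc25a39, which brings glutathione into mitochondria, led the class per kilobase. It was at 256, 281 and 408 CPM in basal, 399, 462 and 556 CPM in AP and 658, 1058 and 1199 CPM in HSL, with every HSL library above every other (3.40-fold over basal and 2.16-fold over AP, adjusted p = 2.1e-08 and 1.6e-05). The adenine nucleotide carriers, which exchange ADP for ATP, differed from each other. Slc25a4, the form of muscle and heart, was at 641 ± 120 CPM in basal, 216 ± 48 CPM in AP and 250 ± 15.2 CPM in HSL (log2 -1.57 ± 0.15 and -1.36 ± 0.15, adjusted p = 8.1e-08 and 2.8e-07). Slc25a5, the form of proliferating cells, was at 102 ± 29.8, 82.4 ± 33.6 and 98.4 ± 16.3 CPM and was called in no comparison. Nor was the phosphate carrier Slc25a3 (285 ± 51.6, 289 ± 46.3 and 321 ± 39.4 CPM). Slc25a1, which exports citrate for fatty acid synthesis, was higher in HSL (153 ± 14.8 CPM) than in basal (110 ± 9.15 CPM) and AP (90.4 ± 9.43 CPM, adjusted p = 5.7e-06). Its lower level in AP than in basal (log2 -0.28, adjusted p = 0.021) was lost without sample 2 (-0.27), 3 (-0.22), 5 (-0.25) or 6 (-0.25) and with scaling by total counts (-0.14). Slc25a33, a pyrimidine nucleotide carrier, was at 17.3 ± 5.16 CPM in basal, 84.8 ± 17.8 CPM in AP and 142 ± 46.5 CPM in HSL.

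Of the 174 symbols 4 were set apart from the substrate classes as proteins that are not themselves transporters. The heavy chain Slc3a2, which escorts transporters, was counted with the amino acid carriers. Slc9a3r1, a scaffold that anchors ion exchangers and channels under the apical membrane, was at 79.4, 119 and 142 CPM in basal, 410, 490 and 519 CPM in AP and 357, 424 and 478 CPM in HSL. Both luminal populations stood above all basal libraries (4.2-fold and 3.71-fold, adjusted p = 8.9e-10 and 1.5e-09) and overlapped each other. The other 3 (Slc9a3r2, Slc7a6os and Slc4a1ap) differed by 1.91-fold or less between populations.

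Transport genes outside the family were counted in the same way. Of 21 ABC transporters 10 were called above and 4 below basal in AP, 14 and 2 in HSL against basal, and 8 and 0 in HSL against AP. Of 22 proton, calcium and copper pumps 14 were called above and 2 below basal in AP, 18 and 1 in HSL against basal, and 14 and 2 in HSL against AP. Of 9 carriers without an Slc symbol 4 were called above and 2 below basal in AP. Among them was Spns2, the sphingosine-1-phosphate exporter, at 23.3 ± 7.87 CPM in basal, 477 ± 90.3 CPM in AP and 61.1 ± 31.9 CPM in HSL. Of 8 genes of the amino acid response none was called above and 2 below basal in AP, and 2 above and 2 below basal in HSL. The 2 above were Asns at 60.4 ± 14.4 CPM in basal and 113 ± 33.4 CPM in HSL (adjusted p = 0.00060), and Trib3 at 16.3 ± 3.33 and 26.5 ± 12.6 CPM (adjusted p = 0.048). Atf4, its central transcription factor, fell from 453 ± 111 CPM in basal to 268 ± 53.8 CPM in AP and 132 ± 31.9 CPM in HSL (adjusted p = 0.0045 and 6.9e-07). Of 11 glycolysis genes 2 were called above and 2 below basal in AP, and 5 above and 2 below basal in HSL. For HSL this was near the share of protein-coding genes, and for AP it was below that share.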

How the data were processed

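RNA from 3 sorted mammary epithelial populations was sequenced in 18 libraries (Smart-Seq v4 cDNA, Nextera XT libraries, which do not mark strand, per the labels' protocols). The deposited tables hold the authors' read counts per gene and RPKM values, on GRCm38 per the submitters' processing notes; no source used here names the aligner or counter. Of 52636 identifiers 147 had no match in GENCODE M21 and were left out (0.00303 to 0.00677% of counts). The deposited RPKM values were not used for tests. Counts were tested with edgeR 4.0.16 (quasi-likelihood, robust, TMM factors, filterByExpr with a minimum count of 10, R 4.3.3) over 16471 genes and all 18 libraries, with Benjamini-Hochberg adjustment and calls at 0.05. SEs are those of the log2 fold changes, SDs are over 6 libraries, and p-values measure only the spread between these samples. The labels do not tie sample numbers to animals, but same-numbered libraries deviated together in all 18 pairs (correlations of 0.127 to 0.63), so that a fit blocked on sample number was run. Alternatives were DESeq2 1.42.0, scaling by total counts, other low-count filters, each sample left out, and samples 1 to 3 or 4 to 6 alone. On data simulated for AP against basal, 77% of 100 genes changed 2-fold were called.

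The members and lists were chosen with earlier results of these data known. Named genes are, per comparison and direction, up to 8 with the largest fold among called genes with no overlap and 50 CPM or more in the higher population, the 2 leading each class per kilobase, genes with a known role in secretion, pairs of a family called in opposite directions, and leading genes of a single population. Slc29a3, Slc25a5, Slc25a3, Slc16a11, Slc16a13, Slc7a6os, Slc4a1ap, Cidec, Fabp4, Bsg, Emb, Aqp5, Aqp1, Stk39, Spns2, Atf4, Asns, Trib3 and Mt1 were chosen after their values were seen. Promoters are from RefSeq (GRCm38.p6).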

Additional observations from a re-analysis of the deposited data

Results flagged for a closer look

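In 201 groups of 6 libraries, 1 for each of 67 named genes in each population, the highest or lowest library stood apart from the others beyond Dixon's critical value for the gap over the range in 25. A rate of about 1 in 20 by chance would hold only for independent groups of normally distributed values. These groups of CPM values share the same 18 libraries, so that the 25 were not tested against that rate. Of the 25 libraries 19 belong to sample 1. In sample 1, unusually high levels were seen for Slc12a7 in HSL (50.4 CPM, next library 9), Slc15a2 in HSL (29.8 CPM, next library 11), Slc16a1 in AP (221 CPM, next library 99.3) and Slc1a4 in basal (27.4 CPM, next library 11). Further such libraries were those for Slc1a5 in AP (88 CPM, next library 51.8), Slc1a5 in HSL (113 CPM, next library 66.9), Slc20a2 in AP (101 CPM, next library 56.9) and Slc25a5 in AP (147 CPM, next library 83.7). The same was seen for Slc27a3 in AP (24.8 CPM, next library 7.57), Slc27a3 in HSL (11.2 CPM, next library 1.35), Slc29a1 in basal (416 CPM, next library 304) and Slc29a1 in AP (326 CPM, next library 247). Last came those for Slc29a3 in HSL (63.3 CPM, next library 34.4), Slc2a4 in AP (2.47 CPM, next library 0.925), Slc43a2 in HSL (14.3 CPM, next library 5.54) and Slco2a1 in basal (1397 CPM, next library 595). Low levels in sample 1 were seen for Slc12a2 in HSL (4505 CPM, next library 19409.5), Slc31a1 in AP (127 CPM, next library 146) and Slc37a1 in AP (25.9 CPM, next library 52.6). In other samples, high levels were seen for Slc12a4 in AP of sample 2 (42.5 CPM, next library 16.2), Slc22a4 in basal of sample 3 (10.4 CPM, next library 5.53), Slc22a4 in AP of sample 3 (79.6 CPM, next library 36.2) and Slc2a13 in AP of sample 3 (1.22 CPM, next library 0.281). Further such libraries were those for Slc35f3 in AP of sample 2 (149 CPM, next library 64.7) and Slc44a4 in basal of sample 4 (23.6 CPM, next library 11.7). The part of cell mixture or of library handling in these values was not tested.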

How the results depend on the processing

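With samples 1 to 3 alone, fewer solute carriers were called: 36 higher and 17 lower for AP over basal, 49 higher and 31 lower for HSL over basal, and 11 higher and 18 lower for HSL over AP. Over all genes that fit called 1709 and 2009, 2531 and 3143, and 443 and 1048, beside 3544 and 3812, 4587 and 5034, and 3256 and 3315 with all samples. Counting all solute carriers tested gave 86 higher and 79 lower, 100 and 90, and 85 and 57 of 274, a larger set by construction. Leaving out the 11 genes at the level in a single population, added after seeing the data, kept each count within 1.5 times. Leaving out each sample in turn gave 56 to 65 higher and 29 to 43 lower for AP over basal, 71 to 79 higher and 41 to 47 lower for HSL over basal, and 54 to 74 higher and 31 to 37 lower for HSL over AP. Blocked on sample number, the paired fit called 65 and 44, 80 and 49, and 73 and 39, and ended no call among the named genes. No called value of a named gene changed direction. The named genes include those at the level in a single population, whose higher population was fixed by the rule. The number of members was 199 at a level of 5 CPM and 149 at 20 CPM. Leaders by level changed in 3 classes with the deposited gene widths and in 1 without a length.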
